A study of Mus musculus with 15 samples.

Results

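Hyaluronan metabolism and the large proteoglycans were followed through 9 genes in mouse embryonic fibroblasts (MEFs) exposed to 4 cytokines. The genes were the hyaluronan synthases Has1, Has2 and Has3, the hyaluronidases Hyal1 and Hyal2, the hyaluronan-binding protein gene Tnfaip6, and the proteoglycan genes Vcan (versican), Acan (aggrecan) and Cspg4 (NG2). They were taken as the probes whose systematic name is a RefSeq transcript of a listed gene, which gave 13 of the 56605 distinct probes on the array and 9 of the 23462 genes named. Of these, 10 probes of 6 genes were bright enough to be tested. Has1, Has3 and Acan were not.

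RNA was measured on 15 one-colour microarrays, in 5 groups of 3. The cells of all groups were Balb/c/3T3 clone A31 MEFs, an established line grown in medium with fetal calf serum, so that no group held primary fibroblasts or a second genetic background. The groups were MEFs alone (CTRL) and MEFs stimulated with TNFα at 10 ng/ml, TGFß1 at 5 ng/ml, IL-1β at 1 ng/ml, or IL-6 at 20 ng/ml together with its soluble receptor sIL-6Rα at 25 ng/ml. The methods give a stimulation of 24 h for the CTRL, TNFα and TGFß1 arrays. The labels name 24 or 72 h for the whole series, and the exposure behind the IL-1β and IL-6 arrays is not given in the sources used here. Arrays are called by their group and the number that opens their label. A level is the log2 of a probe's signal over the 75th percentile of all signals on that array, so 0 is the brightness of the 75th percentile. Levels of different probes were not set against each other. Differences were tested with limma over 29334 probes in 1 fit of all 15 arrays. A probe was called where its Benjamini-Hochberg q-value was under 0.05 and its fold-change at least 1.5. A level is RNA per amount of labelled RNA. A smaller share of cells holding a gene's RNA cannot be told apart from less of that RNA per cell.

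Hyaluronan is a long unsulfated sugar polymer that synthases at the cell surface make from UDP-glucuronic acid and UDP-N-acetylglucosamine and push out into the matrix. Hyaluronidases cut it, CD44 binds it on cells, and versican and aggrecan attach to it through their N-terminal domains and bring chondroitin sulfate chains into the network. In fibroblasts this swollen matrix surrounds migrating and contracting cells. NG2 is a transmembrane chondroitin sulfate proteoglycan found on pericytes, oligodendrocyte precursors and some mesenchymal cells.

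Known response genes of each cytokine were read first. Ccn2 and Smad7, targets of TGFß signalling, rose with TGFß1 by a log2 fold-change of 3.08 and 2.02. Ccl2, Cxcl1 and Nfkbia, targets of NF-κB, rose by 2.42 to 3.65 with TNFα and by 1.11 to 4.14 with IL-1β. Socs3 and Bcl3 rose with IL-6, by 2.39 and 1.65, and Stat3 had a difference of 0.55 that was not called. Of these, Nfkbia with IL-1β (without CTRL 6, CTRL 11, IL-1β 5 or IL-1β 10) and Bcl3 with IL-6 (without CTRL 1, CTRL 6 or IL-6 8) were not called in fits that left out 1 array. All 10 fibroblast markers (among them Col1a1, Pdgfra and Vim) were well above background on every array. Among markers of other cells, 2 of 8 chondrocyte genes (Sox9 and Comp), 1 of 6 pericyte genes (Mcam), 3 of 6 macrophage genes (Csf1r, Cd68 and Itgam), 1 of 5 endothelial genes (Pecam1) and 0 of 6 epithelial genes were so on every array. The pan-leukocyte gene Ptprc and the macrophage genes Adgre1 and Fcgr1 were above background on none. The summed signal of the macrophage list, in units of the 75th percentile, was 10.2 to 21.9 in CTRL, 11.9 to 22.8 with TNFα, 11.9 to 20.9 with TGFß1, 11.1 to 24.2 with IL-1β and 10.8 to 23.4 with IL-6, ranges that overlapped in all 5 groups. The summed signal of the pericyte list, to which Cspg4 would belong, was 23.9 to 37.7 in CTRL, 30.6 to 50.1 with TNFα and 31.7 to 54.2 with TGFß1. Of its 3 tested genes, 0 were called higher and 1 lower with TGFß1 (Rgs5), and Mcam, the brightest, had an uncalled difference of 0.69. The sum of the chondrocyte list was 7.59 to 10.3 in CTRL and 10.3 to 12.8 with TGFß1, where 0 of its 4 tested genes were called higher and 1 lower (Comp, at -0.94). The sum of the epithelial list was 0.121 to 0.250 in CTRL and 0.254 to 0.653 with TGFß1, without overlap, and 1 of its 2 tested genes was called higher (Krt8). The 2 tested epithelial genes differed by 1.78 and 2.19 with TGFß1. Of the 6 genes on this list, 2 (Cdh1 and Krt5) were well above background on 0 arrays. The part of other cell types in the results below was not tested.

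Promoter sequence was found in the RefSeq table (build GRCm38.p6, the reference mouse and not the Balb/c line) for 7 of the 9 genes, and Has2 and Has3 are named only. The 250 bases upstream of the annotated start are printed for the called genes that have an entry, Hyal2, Cspg4 and Vcan, and for Tnfaip6, the member that held the most motif matches. Capitals mark a match to a searched motif on either strand.
Hyal2 (chr9:107568913-107569162, plus strand): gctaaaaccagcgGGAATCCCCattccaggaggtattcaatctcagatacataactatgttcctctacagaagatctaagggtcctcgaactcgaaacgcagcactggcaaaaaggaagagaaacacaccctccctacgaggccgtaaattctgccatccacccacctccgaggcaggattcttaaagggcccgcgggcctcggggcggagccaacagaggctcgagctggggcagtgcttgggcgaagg
Cspg4 (chr9:56864854-56865103, plus strand): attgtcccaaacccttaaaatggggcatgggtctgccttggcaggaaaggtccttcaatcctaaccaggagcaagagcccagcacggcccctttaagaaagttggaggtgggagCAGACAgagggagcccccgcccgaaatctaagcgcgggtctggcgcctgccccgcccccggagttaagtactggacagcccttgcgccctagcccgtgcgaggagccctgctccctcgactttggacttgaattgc
Vcan (chr13:89742513-89742762, minus strand): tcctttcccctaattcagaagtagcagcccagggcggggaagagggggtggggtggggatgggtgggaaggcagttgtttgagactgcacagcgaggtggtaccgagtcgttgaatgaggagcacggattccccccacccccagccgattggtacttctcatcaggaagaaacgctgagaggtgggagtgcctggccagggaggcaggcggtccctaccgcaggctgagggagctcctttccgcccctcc
Tnfaip6 (chr2:52037863-52038112, plus strand): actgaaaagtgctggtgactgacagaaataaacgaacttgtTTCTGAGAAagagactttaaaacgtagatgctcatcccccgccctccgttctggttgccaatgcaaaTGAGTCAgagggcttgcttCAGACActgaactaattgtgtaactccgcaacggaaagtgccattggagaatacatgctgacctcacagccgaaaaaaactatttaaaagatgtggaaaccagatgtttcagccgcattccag
The motifs searched were κB-like sites, written as GGGNNTTTC and GGGNNTTCC, AP-1 sites as TGANTCA, STAT sites as TTCNNNGAA, SMAD sites as GTCTAGAC and CAGACA, and the TATA box as TATAAA. The κB forms can overlap each other, and no match shown overlaps another. Hyal2 held 1 match to GGGNNTTCC on the minus strand, 237 to 229 bases before the start. Cspg4 held 1 match to CAGACA, 136 to 131 bases before the start, and Vcan held none. Tnfaip6 held 1 match each to TGANTCA, TTCNNNGAA and CAGACA. Over the 7 promoters, CAGACA was in 4 (Has1, Hyal1, Tnfaip6 and Cspg4) and GGGNNTTCC in 2 (Hyal2 and Acan). Of all 32851 promoters of that length, 17.1% and 4.98% held them. Among the CAGACA holders only Cspg4 was called with TGFß1 by its brightest probe, and Has1 was not tested. TATAAA was in none of the 7 and in 12.4% of all. TGANTCA was in 6.75% and TTCNNNGAA in 7.02% of all promoters. A match is a run of letters and not a shown binding site.

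**Figure D1:**
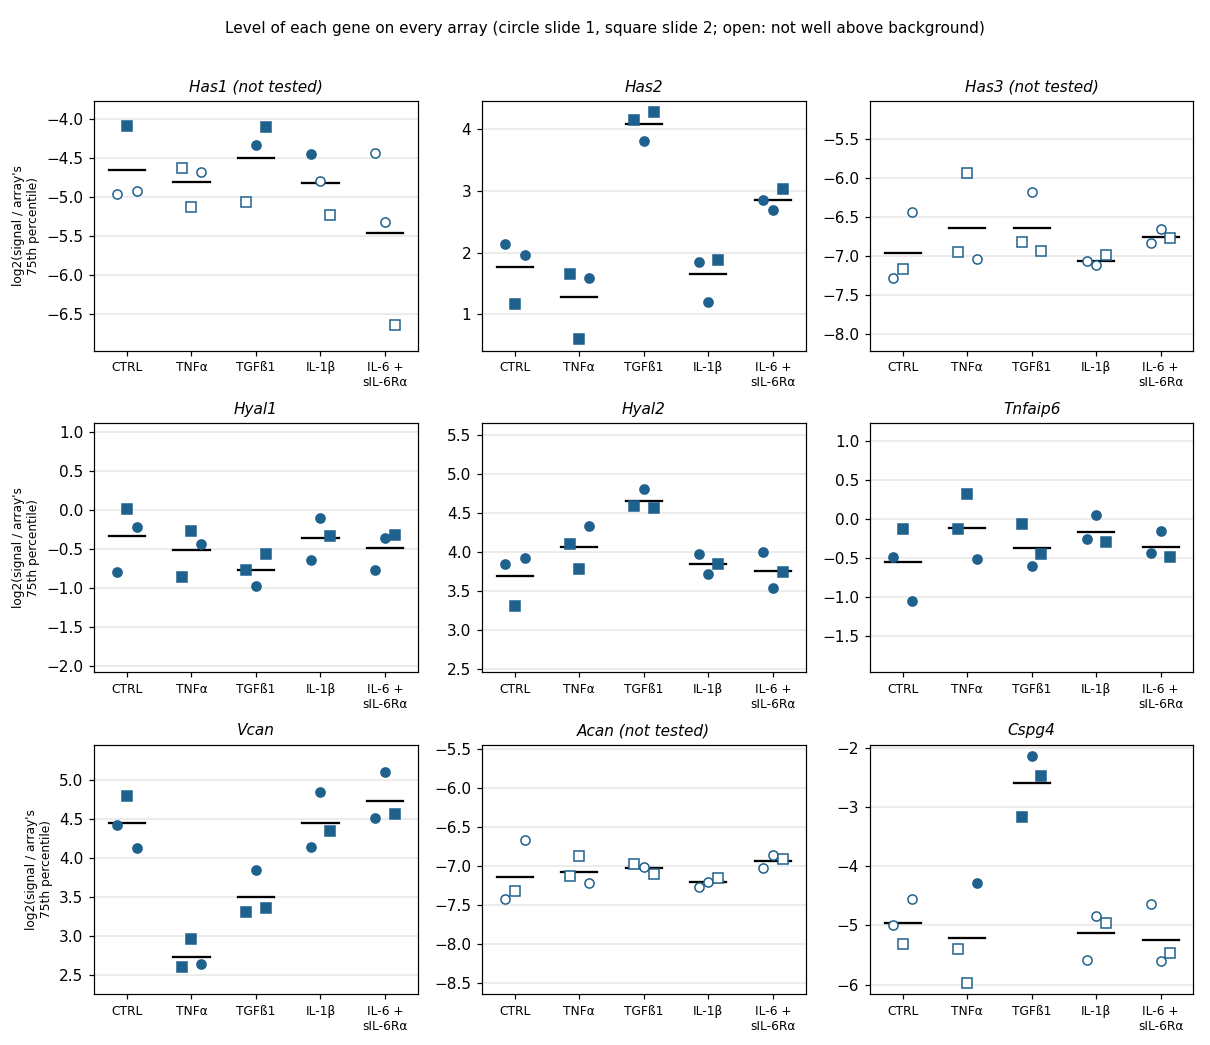
Level of the representative (brightest) probe of each of the 9 genes on every array, in 1 panel per gene, as log2 of the signal over the array's 75th percentile, by group. Bars are group means, circles are arrays of slide 1 and squares arrays of slide 2, and open symbols were not well above background. Has2 and Cspg4 stand highest in the TGFß1 group, Vcan lowest in the TNFα group, and each panel has its own scale.

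TGFß1 changed 4 of the 6 tested genes: Has2, Hyal2 and Cspg4 rose and Vcan fell. Over all tested probes, 17.9% were called in this comparison, 2202 higher and 3048 lower. Counted by gene, as the 6 are, 21.1% of the 13523 genes tested were called. Cspg4 passed the brightness filter through the TGFß1 group alone, so its place among the called genes is not independent of that filter.

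Has2 (NM_008216) makes most of the hyaluronan of many fibroblasts and is the only synthase gene that was well above background on all 15 arrays. Its levels were 2.15, 1.17 and 1.97 on CTRL arrays 1, 6 and 11. With TGFß1 they were 4.15, 3.80 and 4.27 on arrays 2, 7 and 12. The lowest TGFß1 array lay above the highest array of every other group. The log2 fold-change was 2.31 (SE 0.31, 95% interval 1.63 to 2.99, limma q = 0.000282, n = 3 against 3), or 4.97-fold, and it was called in all 12 alternative settings and in all 15 fits that left out 1 array. The 12 settings, also used for other genes below, were not all separate tests. Dropping the fold minimum could not lose a call. Probe averaging changed only Hyal1 and Vcan, and the series table repeated the fit with marked spots kept. The arrays lay on 2 slides that each held all 5 groups. The difference was 2.33 with the slide as a block, 1.74 within slide 1 and 3.04 within slide 2, each called.

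With IL-6 and its receptor, Has2 was at 2.86, 2.68 and 3.02 on arrays 3, 8 and 13. These 3 arrays lay above the 3 CTRL arrays and below the 3 TGFß1 arrays, without overlap on either side. The difference from CTRL was 1.09 on the log2 scale (SE 0.31, interval 0.41 to 1.77), and it was not called after adjustment over all probes (limma q = 0.694). With slide and run of label numbers as blocks the same difference had an SE of 0.14 and was called (q = 0.0106), in a fit that called 0.787% of probes. It was 1.09 with the slide alone as a block (q = 0.408), 0.71 within slide 1 and 1.85 within slide 2, none of them called.

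Has2 was at 1.65, 0.60 and 1.58 on TNFα arrays 4, 9 and 14. On IL-1β arrays 5, 10 and 15 it was at 1.85, 1.19 and 1.89. Both groups overlapped CTRL, with differences of -0.48 (interval -1.16 to 0.20, q = 0.374) and -0.11 (interval -0.80 to 0.57, q = 1.00). With slide and run as blocks the TNFα difference was -0.44 (SE 0.15, limma q = 0.0416), below the fold minimum and so not called. From the levels, the order of the group means was TGFß1, IL-6, CTRL, IL-1β and TNFα. Between neighbours in that order, TGFß1 and IL-6 differed by 1.22 (q = 0.0154), a call that was lost without TGFß1 array 2 (q = 0.0529), TGFß1 array 12 (q = 0.0582) or IL-6 array 8 (q = 0.0658), and the other neighbours were not called apart.

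Has1 (NM_008215) and Has3 (NM_008217) encode the other synthases. Has1 was well above background on 4 of 15 arrays, namely CTRL 6, TGFß1 7, TGFß1 12 and IL-1β 5, and Has3 on 0. Their signals were dim: Has1 levels ran from -6.64 to -4.09 and Has3 levels from -7.28 to -5.94, with overlap between CTRL and every cytokine. At this brightness no difference between groups could be read for either gene.

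Hyal2 (NM_010489) encodes a hyaluronidase anchored to the cell surface that cuts long hyaluronan into shorter pieces. Its levels were 3.84, 3.30 and 3.92 on CTRL arrays 1, 6 and 11, and 4.59, 4.81 and 4.57 on TGFß1 arrays 2, 7 and 12. All 3 TGFß1 arrays were above all arrays of the other 4 groups. The log2 fold-change was 0.97 (SE 0.19, interval 0.56 to 1.38, limma q = 0.00319), or 1.95-fold, called in all 12 alternative settings and all 15 fits without 1 array. It was 1.05 with the slide as a block, 0.93 within slide 1 and 1.28 within slide 2, each called.

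With TNFα Hyal2 was at 4.10, 3.78 and 4.33, a difference from CTRL of 0.38 (interval -0.03 to 0.79, q = 0.232) with overlapping arrays. With slide and run as blocks the TNFα difference was 0.47 (SE 0.09, limma q = 0.00284). It was not called there because it was below the fold minimum. IL-1β and IL-6 gave 0.16 (interval -0.26 to 0.57) and 0.07 (interval -0.34 to 0.48). The gene was thus called in 1 of the 4 comparisons with CTRL.

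Hyal1 encodes the lysosomal hyaluronidase. The means of its 3 probes were all lower with TGFß1 than in CTRL, but the brightest was not called. The brightest probe (NM_001331161) had levels of -0.80, 0.01 and -0.22 in CTRL and -0.77, -0.98 and -0.57 with TGFß1, with overlap, and a difference of -0.44 (interval -0.94 to 0.07, q = 0.196) that was not called. A dimmer probe of the same transcript was at -2.52, -2.55 and -2.53 in CTRL and at -3.22, -3.35 and -3.24 with TGFß1. The probe of NM_008317 was at -2.96, -2.58 and -2.83 in CTRL and at -4.27, -3.42 and -4.01 with TGFß1. Both dimmer probes fell without overlap, by 0.74 (SE 0.18, q = 0.0119) and 1.11 (SE 0.26, q = 0.00933) on the log2 scale. With normexp background correction their differences were -0.24 and -0.37 and neither was called. With the 3 probes averaged the gene was called, at -0.76. In the RefSeq annotation Hyal1 overlaps Naa80 and lies beside Hyal2, and probe sequences were not used here, so which RNA each probe reads is uncertain. In the other 3 comparisons with CTRL no Hyal1 probe was called, with values from -0.50 to -0.03. Between cytokines, both dimmer probes were called higher with IL-1β than with TGFß1, by 0.70 (limma q = 0.0161) and 0.94 (limma q = 0.0222). The dimmer probe of NM_001331161 was also called higher with IL-6 than with TGFß1, by 0.60 (limma q = 0.0348), and in 5 of 10 alternative settings. The brightest probe was called in neither comparison.

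Vcan encodes versican, the large hyaluronan-binding proteoglycan of loose connective tissue, and it fell with both TNFα and TGFß1. Its brightest probe (NM_001081249) was at 4.43, 4.80 and 4.13 on CTRL arrays 1, 6 and 11. With TNFα it was at 2.61, 2.96 and 2.64, and with TGFß1 at 3.31, 3.85 and 3.36. Every TNFα array was below every TGFß1 array, and every TGFß1 array below every CTRL array.

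With TNFα 1 of the 6 tested genes was called, and that gene was Vcan. Over all probes 10.0% were called with TNFα, and 15.4% with slide and run as blocks, where Vcan was again the only called gene of the 6. In that blocked fit Hyal2 (0.47, limma q = 0.00284) and Has2 (-0.44, limma q = 0.0416) also had q-values under the threshold. Their differences were below the fold minimum, so neither was called. The log2 fold-change of Vcan was -1.72 (SE 0.24, interval -2.24 to -1.20, limma q = 0.000531), or 3.29-fold lower. The other probes, both of NM_172955, gave -1.76 (q = 0.00792) and -1.60 (q = 0.00801) and were called as well. The call held in all 12 alternative settings and all 15 fits without 1 array. With the slide as a block the difference was -1.70 and called. Within slide 2 it was -2.02 and called, and within slide 1, where 1 TNFα array stood against 2 CTRL arrays, it was -1.64 and not called (q = 0.0517).

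With TGFß1 the Vcan difference was -0.95 (SE 0.24, interval -1.47 to -0.43, limma q = 0.0126), or 1.93-fold lower. A second probe gave -1.14 (q = 0.0397), called in 6 of 15 fits without 1 array, and the third -0.95 (q = 0.0579), which was not called. With slide and run as blocks the third was called as well (-0.87, q = 0.000351). The call of the brightest probe was lost without CTRL array 6 (-0.78, q = 0.0523) and without TGFß1 array 2 (-0.85, q = 0.0544). With the slide as a block it was -0.93 and called. Within slide 2 it was -1.47 and called, and within slide 1 it was -0.43 and not called (q = 0.453).

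Vcan was not called with IL-1β or IL-6. The arrays were at 4.15, 4.84 and 4.35 with IL-1β and at 4.52, 5.10 and 4.56 with IL-6, and both groups overlapped CTRL. The differences were -0.01 (interval -0.53 to 0.51) and 0.27 (interval -0.24 to 0.79). The 3 probes rest on 2 RefSeq transcripts, but splice forms of versican, which differ in their chondroitin sulfate attachment regions, cannot be told apart from these values.

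Cspg4 (NM_139001) encodes NG2. It was dim, and well above background on the 3 TGFß1 arrays, on TNFα array 14 and on no other. The TGFß1 arrays 2, 7 and 12 were at -3.17, -2.13 and -2.48. The CTRL arrays, none of them well above background, were at -4.99, -5.31 and -4.56. All 3 TGFß1 arrays were above all 12 others. Set against a floor for the CTRL arrays, as defined next, the level with TGFß1 was 4.55-fold higher. The floor is, on each array, the higher of the lowest well-measured signal of any probe and the probe's own. The TGFß1 mean is set against the mean of these. That lowest signal need not be the detection limit of this probe, so the ratio is no strict lower bound. Against IL-1β, IL-6 and TNFα, the last with 1 of 3 arrays measured, the ratios to the floor were 4.84-fold, 3.99-fold and 3.86-fold. The fitted log2 difference from CTRL was 2.36 (limma q = 0.00175), though no CTRL array measured the probe. That q-value belongs to the fit and not to the ratios. With normexp background correction, which adds an offset of 50 and compresses dim signals, the difference was 0.80 and still called.

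**Figure D2:**
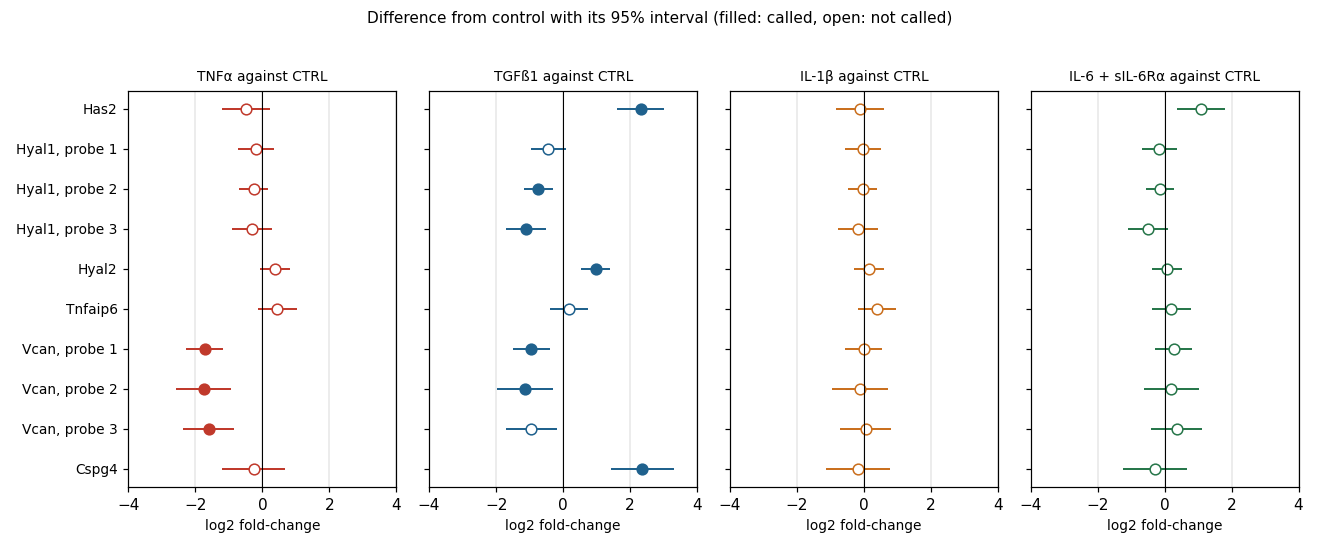
Log2 fold-change against CTRL (horizontal axis) of the 10 tested probes of the 6 genes in 4 panels, 1 per cytokine. Points are estimates and lines their 95% intervals from limma, and filled points were called. The TGFß1 panel holds filled points on both sides of 0, those of the TNFα panel are the 3 Vcan probes, and no point of the IL-1β and IL-6 panels is filled. The Cspg4 points rest on CTRL arrays that were not well above background.

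Tnfaip6 (NM_009398) encodes TSG-6, a secreted protein that binds hyaluronan and moves heavy chains of inter-alpha-inhibitor onto it, and it is known as a gene that TNF induces. Its levels in CTRL were -0.49, -0.14 and -1.06. With TNFα they were -0.14, 0.31 and -0.52, and with IL-1β -0.26, 0.05 and -0.30. Both groups overlapped CTRL. The differences were 0.44 with TNFα (interval -0.10 to 0.99, q = 0.299) and 0.39 with IL-1β (interval -0.16 to 0.94). TGFß1 and IL-6 gave 0.18 (interval -0.37 to 0.72) and 0.20 (interval -0.35 to 0.74). The gene was called in none of the 10 comparisons run. With slide and run as blocks the TNFα difference was 0.33 (SE 0.13, limma q = 0.0711), again not called but with a smaller SE than the 0.25 without blocks. On the same TNFα arrays Ccl2 and Nfkbia were called higher, as given above.

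Acan (NM_007424) encodes aggrecan, the main proteoglycan of cartilage. It was well above background on 0 of 15 arrays, with levels from -7.43 to -6.67, and its groups were not compared.

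IL-1β and IL-6 were compared with CTRL in the same way, and 0 of the 6 tested genes were called by limma in either. At an unadjusted p under 0.05 there were 0 with IL-1β and 1 with IL-6, which was Has2. Few probes were called at all, 0.232% with IL-1β and 0.0580% with IL-6. Of the 13523 genes tested, 0.318% and 0.0887% were called. With slide and run as blocks 1.10% of probes were called with IL-1β and again 0 of the 6 genes. In the comparison of TGFß1 with CTRL the blocked fit called 22.7% of probes and the same 4 genes. A q-value over the threshold does not show that a gene stayed the same, and the intervals above give the differences these arrays leave possible.

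The 4 cytokines were also set against each other on the 15 arrays. TNFα and TGFß1 differed in 3 of the 6 genes, where 11.8% of all probes were called: Has2, Cspg4 and Vcan were lower with TNFα. For Has2 the difference was -2.79 (SE 0.31, limma q = 5.9e-05), or 6.94-fold, with no overlap. For Vcan it was -0.77 (SE 0.24, q = 0.0474), and the call was lost in 5 of 11 alternative settings (q up to 0.173) and in 10 of 15 fits without 1 array (q up to 0.184), while the other Vcan probes were not called. With slide and run as blocks all 3 Vcan probes were called (q = 0.000206, 0.00111 and 0.0023). For Hyal2 it was -0.59 (q = 0.0561), not called, and called with slide and run as blocks (q = 0.000636, with 16.1% of probes called there).

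IL-1β differed from TNFα in 1 gene, Vcan, which was 1.71 higher on the log2 scale with IL-1β (q = 0.00122), where 4.69% of probes were called. IL-6 differed from TNFα in Vcan, 1.99 higher (q = 0.000174), and in Has2, 1.57 higher (q = 0.00641), where 8.59% of probes were called. By their brightest probes, the same 4 genes, Has2, Hyal2, Cspg4 and Vcan, differed between TGFß1 and IL-1β and between TGFß1 and IL-6. There 16.9% and 16.3% of probes were called. These comparisons share the TGFß1 arrays. Cspg4 passed the brightness filter through the TGFß1 group alone. Its calls here and in the comparison of TNFα with TGFß1 are therefore not independent of that filter. The Vcan difference between IL-1β and TGFß1, 0.94 (q = 0.0139), was not called without TGFß1 2 (q = 0.0587), TGFß1 12 (q = 0.053) or IL-1β 10 (q = 0.0728). IL-1β and IL-6 differed in 0 of the 6 genes, at a background of 0.399%. Has2 had a difference of -1.21 between them (q = 0.212), which was called with slide and run as blocks (q = 0.00231, background 1.77%).

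**Figure D3:**
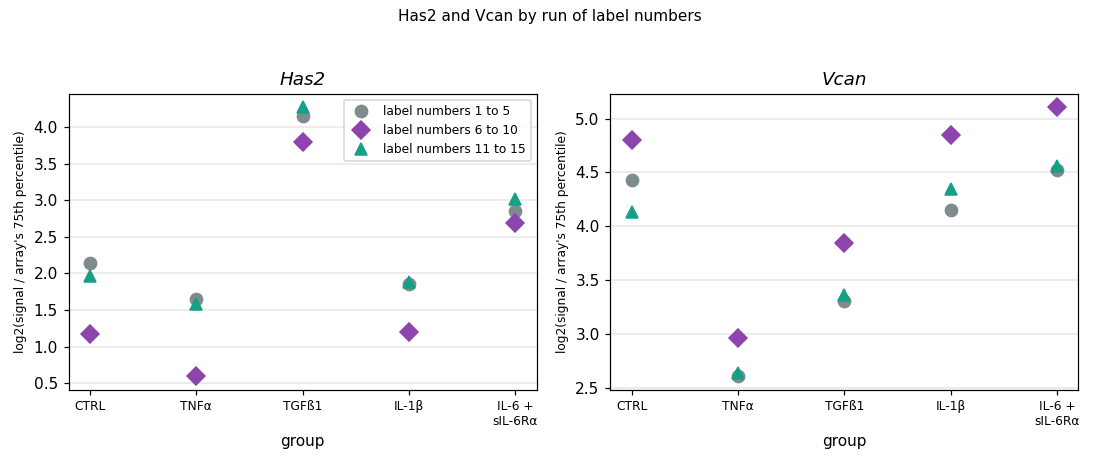
Levels of Has2 and of the brightest Vcan probe by group (horizontal axis), with arrays marked by the run of their label number, 1 to 5, 6 to 10 or 11 to 15. Diamonds (6 to 10) are lowest in each group for Has2 and highest in each group for Vcan.

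The spread within groups had a shared shape for Has2 and Vcan. The label numbers fall into 3 runs of 5, each with 1 array of every group. The arrays numbered 6 to 10 had the lowest Has2 level in all 5 groups, 0.43 below the group mean on average. The same arrays had the highest level in all 5 groups for each of the 3 Vcan probes, 0.34 above the group mean for the brightest. Of 29256 probes with a value on every array, 4.39% were lowest and 4.06% highest in all groups in that run. For the probes of Hyal1, Hyal2, Tnfaip6 and Cspg4 no run was highest or lowest in all 5 groups. What the runs stand for is not stated in the labels.

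Enzymes around hyaluronan were counted from lists of genes. Of 10 enzymes that make the sugar precursors, 4 rose and 0 fell with TGFß1: Gfpt2 by 1.42 (SE 0.18), Hk2 by 0.94 (SE 0.21), Gnpnat1 by 0.65 (SE 0.13) and Ugdh by 0.63 (SE 0.13) on the log2 scale. Gfpt2 makes glucosamine 6-phosphate, the entry to the hexosamine pathway, Gnpnat1 acetylates it, Hk2 is a hexokinase, and Ugdh oxidises UDP-glucose to UDP-glucuronic acid. The median of the list was 0.52, against 0.06 over the 13523 genes tested, of which 21.1% were called. Gnpnat1 and Ugdh lay near the fold limit and were not called where the array scaling used only probes well above background on all arrays, nor without CTRL 6. Ugdh was also not called with quantile normalization or without TGFß1 12. With TNFα 1 of the 10 was called, Ugp2, which makes UDP-glucose, lower by 0.67 (SE 0.11), with a list median of -0.18 against 0.01 and 12.6% of all genes called.

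Among 11 receptors and other degradation genes 5 were tested. Cd44, the main hyaluronan receptor, rose by 0.90 with TNFα (SE 0.15, q = 0.0021) and by 0.91 with TGFß1 (SE 0.15, q = 0.00117). Cemip2, a cell-surface protein of hyaluronan breakdown, rose by 0.72 with TGFß1 (SE 0.15), and the receptor gene Layn fell by 0.79 (SE 0.23), a call that was lost without CTRL 6, CTRL 11, TGFß1 2 or TGFß1 12. Lyve1, Cemip and Hyal3 were above background on 0 arrays. The list median with TGFß1 was 0.27, against 0.06 over all genes tested. Over all genes tested, 21.1% were called with TGFß1 and 12.6% with TNFα.

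Of 14 genes for hyaluronan binding and matrix assembly 3 were tested, and 1 was called, with TGFß1, where 21.1% of all genes tested were called. Ptx3, a secreted pentraxin that joins TSG-6 and hyaluronan in the matrix, had a mean level of 1.20 ± 0.44 in CTRL and -4.21 ± 0.53 with TGFß1 (SD, n = 3 each). It fell by 5.41 with TGFß1 (SE 0.38, q = 2.63e-06) and was well above background on 2 of the 3 TGFß1 arrays and on all 12 others. TGFß1 array 2 was the exception. Hapln1, which links versican and aggrecan to hyaluronan, was above background on 0.

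Of 22 genes for chondroitin sulfate chains, the chains that versican, aggrecan and NG2 carry, 17 were tested. With TGFß1 4 rose and 1 fell, where 21.1% of the 13523 genes tested were called. Chst11, a 4-O-sulfotransferase, rose by 2.80 (SE 0.26, q = 1.71e-05), Ust, a uronyl 2-sulfotransferase, by 2.20 (SE 0.18, q = 7.49e-06), Chsy1, a chain polymerase, by 1.11 (SE 0.13) and B4galt7, a linker enzyme, by 0.73 (SE 0.10). Chst15, which adds a 6-sulfate to GalNAc 4-sulfate, fell by 1.76 (SE 0.44, q = 0.0129). The call of Chst15 was lost without CTRL 6, TGFß1 2 or TGFß1 12. The list median was 0.02. With TNFα Csgalnact1, which begins and extends chains, was called, lower by 1.26 (SE 0.22), where 12.6% of all genes tested were called. None of the tested genes of these 4 lists was called by limma with IL-1β or IL-6. With slide and run as blocks, 4 were called higher with IL-6, in the fit that called 0.787% of all probes: Ptx3 at 1.16, Csgalnact1 at 0.69, Hk2 at 0.68 and Gfpt2 at 0.62.

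**Figure D4:**
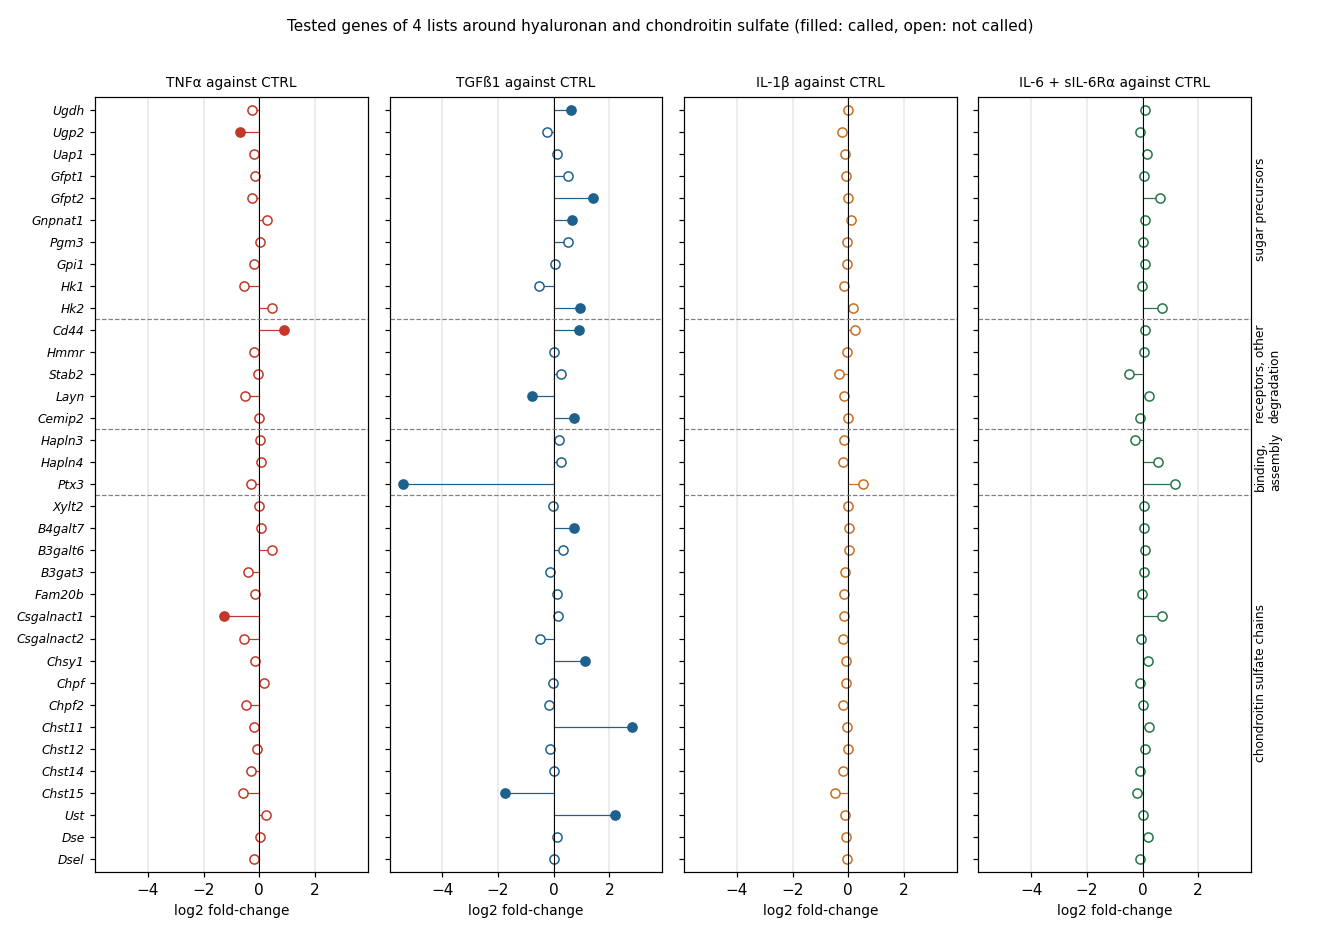
Log2 fold-change against CTRL (horizontal axis) of the tested genes of 4 lists around hyaluronan and chondroitin sulfate, in 1 panel per cytokine, with lists divided by dashed lines. Filled points were called. The TGFß1 panel runs from Ptx3 at -5.41, measured on 2 of 3 TGFß1 arrays, to Chst11 at 2.80, and no point of the IL-1β and IL-6 panels is filled.

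Genes whose levels ran most alike with the members were found by Pearson's r over the 15 arrays among 13486 genes, as a description. For Has2 they were Fads3 (0.96), Chsy1 (0.95) and Runx2 (0.95). For Vcan they were Pja2, Fam124a and Brinp3 (each 0.97), for Hyal2 Ubl4a, Ccdc24 and Prep (each 0.98), and for Cspg4 B4galt3 (0.96), Pepd (0.95) and Pdrg1 (0.95). The highest values for Hyal1 and Tnfaip6 were lower, 0.91 with 2610002M06Rik and 0.87 with Apol7b. The 15 points share the 5 groups, the slides and the runs.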

How the data were processed

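Total RNA of MEFs was labelled with Cy3 and hybridised to 15 Agilent arrays. The deposited intensity values were made by the authors with Agilent Feature Extraction (version 10.7.3.1, submitters' processing notes), which subtracts background from each spot and floors dim spots. No normalization between arrays is named in the sources used here. The series table holds the same values as the scanner files.

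For this work, spots marked as outliers or non-uniform were left out, log2 of the processed signal minus the array's 75th percentile was taken, and probes well above background on all arrays of at least 1 group were kept. limma 3.58.1 (R 4.3.3) was fitted without covariates, with Benjamini-Hochberg adjustment over all tested probes. A gene was represented by its brightest probe. Array number limits the precision. The labels do not tie arrays to the 3 independent experiments of the methods. Slides (2) came from the file headers. With the slide removed, arrays of the same run of label numbers deviated together from their group means (r over 0.1 in 30 of 30 pairs, against 2 of 60 pairs of different runs), and with it kept they did so in 12 of 30, against 28 of 60. Slide and run were blocks in an alternative fit. The script was tested on simulated data. The members, lists and tests were chosen with earlier results of these data known. Genes outside the members were named where called in a list, up to 3 per list and comparison beside counts, as cytokine response genes, or as the 3 most alike. Ugdh, B4galt7 and the genes named as absent were named after their values were seen. A gene of the response lists is not reported here.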

Additional observations from a re-analysis of the deposited data

How the results depend on the processing

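Over the comparisons with CTRL and between cytokines, no called difference of the 6 tested genes changed its direction under the alternatives run (background correction, normalization, filters, marked spots, series table, slide and run blocks, probe averaging, no fold minimum, 9 arrays, leaving out each array, and single slides). The number of genes called moved by over 1.5 times in 2 cases: with slide and run as blocks IL-6 against CTRL gave 1 in place of 0, and within slide 1 TNFα against CTRL gave 0 in place of 1. Smaller moves were 3 in place of 4 for TGFß1 under the strict filter and within slide 1, 5 with probes averaged (Hyal1 added), and 11 (strict filter) to 16 (slide and run as blocks) in place of 14 over the 6 direct comparisons. Within a slide some groups are a lone array, assumed to vary like the others. The strict filter left Cspg4 untested. Leaving out each array gave 3 to 4 genes for TGFß1 (3 without CTRL 6 or TGFß1 2), 1 for TNFα, 0 for IL-1β and IL-6, and 11 to 15 calls over the direct comparisons. The causes were not tested. Signal near background limits Cspg4 and leaves Has1, Has3 and Acan unread.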
